A study of Homo sapiens with 6 samples.

Results

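Genes whose products carry cells from G2 through mitosis were compared between HCT116 cells given miR-224 and HCT116 cells given control oligos. The set comprised 45 genes chosen by name, among them PLK1, the B-type cyclins, the Aurora kinases, kinetochore proteins and mitotic kinesins, and all 45 were measured among the 19775 genes on the arrays. The genes were chosen with earlier results of these data known, so counts and shares over the set are descriptions and not independent tests. Each gene was read by its brightest probe set, that is, the one with the highest mean over the arrays among probe sets annotated with that gene symbol alone. HCT116 is an established human colon carcinoma line. In the miR-224 group the cells were transfected with miR-224 precursor molecules at 50 nM and in the control group with control molecules at 50 nM, and both were harvested 24 h later for total RNA. There were 3 arrays in each group, taken as pairs in 3 independent experiments that the sample titles number 1 to 3. The miR-224 cells therefore model a brief excess of a transfected microRNA in a single cell line, and which arm of the precursor acted is not stated. The values are the authors' deposited RMA expression values, read here as log2, so that a difference of 1 is a doubling. The number of arrays limits the precision.

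Entry into mitosis is driven by CDK1 bound to cyclins A and B, which CDC25 phosphatases switch on and WEE1 and PKMYT1 hold back. PLK1 and the Aurora kinases then build the spindle, kinetochores and the spindle checkpoint watch chromosome attachment, and the ubiquitin ligase APC/C with CDC20 releases the chromatids before kinesins and PRC1 set up the central spindle for cytokinesis. Many of these genes are transcribed late in the cell cycle through promoter elements known as the CHR and the CCAAT box, bound by the MuvB-based complexes and by NF-Y, and p53 lowers them through the CDK inhibitor p21 and the DREAM complex.

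The microRNA that was supplied is shown by its mature arms from RefSeq (GRCh38.p14), with the seed, bases 2 to 8 from the 5′ end, in capitals. Both are encoded on the minus strand, at chrX:151958628-151958652 (5p) and chrX:151958584-151958606 (3p).
hsa-miR-224-5p: uCAAGUCAcuagugguuccguuuag
hsa-miR-224-3p: aAAAUGGUgcccuagugacuaca

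Promoters are shown for the 8 members with the smallest p in the comparison below, since these are the members the results turn on. Each is the 150 bases before the annotated transcription start from RefSeq (GRCh38.p14), written 5′ to 3′ on the strand of the gene. Capitals mark the letters TTTGAA or TTTAAA, the forms of the CHR searched for, and CCAAT, on either strand (TTCAAA and ATTGG on the other strand, while TTTAAA reads alike on both). The searched forms can overlap each other.
PLK1, chr16:23678739-23678888, plus strand: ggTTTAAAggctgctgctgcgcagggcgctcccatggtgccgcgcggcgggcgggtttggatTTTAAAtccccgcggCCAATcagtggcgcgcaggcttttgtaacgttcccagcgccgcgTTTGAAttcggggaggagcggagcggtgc
KIF20A, chr5:138178962-138179111, plus strand: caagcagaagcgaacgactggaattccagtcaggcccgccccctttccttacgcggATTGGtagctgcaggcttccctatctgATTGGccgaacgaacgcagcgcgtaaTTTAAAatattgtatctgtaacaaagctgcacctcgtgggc
ANLN, chr7:36389712-36389861, plus strand: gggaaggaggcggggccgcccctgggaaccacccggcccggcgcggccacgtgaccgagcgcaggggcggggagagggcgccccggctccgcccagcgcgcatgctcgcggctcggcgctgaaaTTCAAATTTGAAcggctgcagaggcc
CENPE, chr4:103198344-103198493, minus strand: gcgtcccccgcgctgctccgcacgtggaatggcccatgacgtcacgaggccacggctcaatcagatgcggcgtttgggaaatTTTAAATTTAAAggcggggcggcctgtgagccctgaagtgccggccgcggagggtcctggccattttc
PRC1, chr15:90994536-90994685, minus strand: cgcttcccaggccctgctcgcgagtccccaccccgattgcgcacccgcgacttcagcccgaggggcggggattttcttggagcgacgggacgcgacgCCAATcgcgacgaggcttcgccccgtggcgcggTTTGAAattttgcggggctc
KIF23, chr15:69414199-69414348, plus strand: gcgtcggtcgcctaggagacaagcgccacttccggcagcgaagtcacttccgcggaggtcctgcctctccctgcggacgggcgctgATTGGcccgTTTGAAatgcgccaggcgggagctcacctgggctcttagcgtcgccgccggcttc
CCNB2, chr15:59104996-59105145, plus strand: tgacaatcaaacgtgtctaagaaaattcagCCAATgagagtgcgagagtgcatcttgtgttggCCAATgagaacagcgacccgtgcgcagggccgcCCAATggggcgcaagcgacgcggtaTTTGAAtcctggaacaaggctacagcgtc
CCNA2, chr4:121823884-121824033, minus strand: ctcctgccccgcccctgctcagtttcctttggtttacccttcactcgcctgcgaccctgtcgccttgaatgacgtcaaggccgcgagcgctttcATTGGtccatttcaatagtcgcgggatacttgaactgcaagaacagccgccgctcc

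Over windows of 300 bases, from 250 before to 50 after the start, 40 members had a RefSeq promoter, some with several starts. AURKA, FOXM1, TPX2, TTK and UBE2C were not matched. TTTGAA or TTTAAA occurred in a window of 35 of the 40 members (87.5%), compared with 24.0% of the 15384 genes on the arrays that had a promoter and 27.9% of all 27305 genes in the table. A CCAAT box occurred in 33 members (82.5%), against 41.7% of array genes and 39.7% of all genes, and 20 members (50%) held at least 2 in one window, against 14.5% and 12.9%. Both elements lay in the same window in 27 members (67.5%), against 9.91% of array genes and 11.2% of all genes. In KIF20A, PRC1, KIF23, CCNB2 and PLK1 a CCAAT box stood upstream of a CHR-type motif. Of the letters searched for, ANLN and CENPE held CHR-type ones only and CCNA2 held CCAAT only. Other forms of the CHR were not searched for, so a promoter without these letters may still hold a CHR. These matches describe letters and are not evidence of binding.

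The plot of motif positions shows where in the window the letters lay. Positions count from the start, with negative values before it. A CHR-type motif began from -75 to -1 in 48.1% of the 52 member windows and in 5.20% of 21490 windows of array genes. CCAAT began from -100 to -26 in 53.8% of member windows, against 17.7%. Both spans were chosen after the positions were seen.

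**Figure D1:**
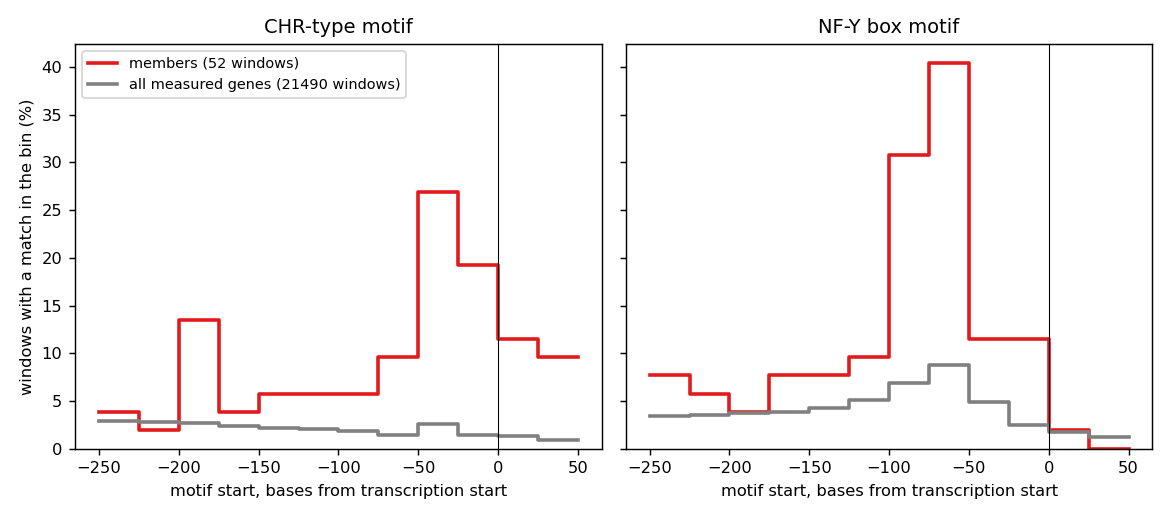
Share of promoter windows with a motif match (y axis, percent) in bins of 25 bases against the start of the match in bases from the transcription start (x axis). Red shows the 52 windows of the 40 members with a promoter and grey the 21490 windows of the 15384 array genes with a promoter. CHR-type letters (left) were most frequent in member windows just before the start and the NF-Y box (right) lay further upstream.

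No member passed the test between miR-224 and control cells, although 42 of the 45 had a higher mean in the miR-224 cells. The largest differences were those of KIF20A, a kinesin of the central spindle (1.47-fold higher), PLK1, the kinase of mitotic entry and spindle assembly (1.42-fold), PRC1, the microtubule bundler of the central spindle (1.39-fold), and ANLN, the anillin of the cleavage furrow (1.31-fold). KIF23, the kinesin of the centralspindlin complex, went the other way (0.747-fold). The comparison was a limma fit over all 19775 genes with experiment as a block, Benjamini-Hochberg adjustment over all genes and a threshold of 0.05. It called 0 members and 0 genes in all (0%), with a lowest adjusted p of 0.189 among the members, for PLK1, and 0.086 among all genes.

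At an unadjusted p under 0.05, 10 members were higher, against 5.45% of all genes, and 1 was lower, KIF23, against 5.52%. The 10 were PLK1, KIF20A, ANLN, CENPE, PRC1, CCNB2, CCNA2, KIF11, UBE2C and NDC80. That count was 3 without experiment 2 (3.49% of all genes), 5 without experiment 3 (4.96%) and 0 without the block (0.981%, and 1.58% in either direction). It was 12 without experiment 1 (5.21%) and 13 when all probe sets of a gene were averaged (5.40%). The mean paired difference was above 0 in 93.3% of members and in 53.2% of all genes. The median difference was 0.16 for the members and 0.01 for all genes, with a range over members from -0.42 to 0.56. It was 0.07 without experiment 3, where 35 members were higher.

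In 22 members the difference was above 0 in every experiment (48.9%), against 18.3% of all genes. KIF23 alone among the members was lower in every experiment, which 14.4% of all genes were. For PLK1 alone did all 3 miR-224 arrays lie above all 3 control arrays, as they did for 4.16% of all genes. In bulk RNA a larger share of cells in G2 or mitosis and more RNA of these genes per cell cannot be told apart.

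**Figure D2:**
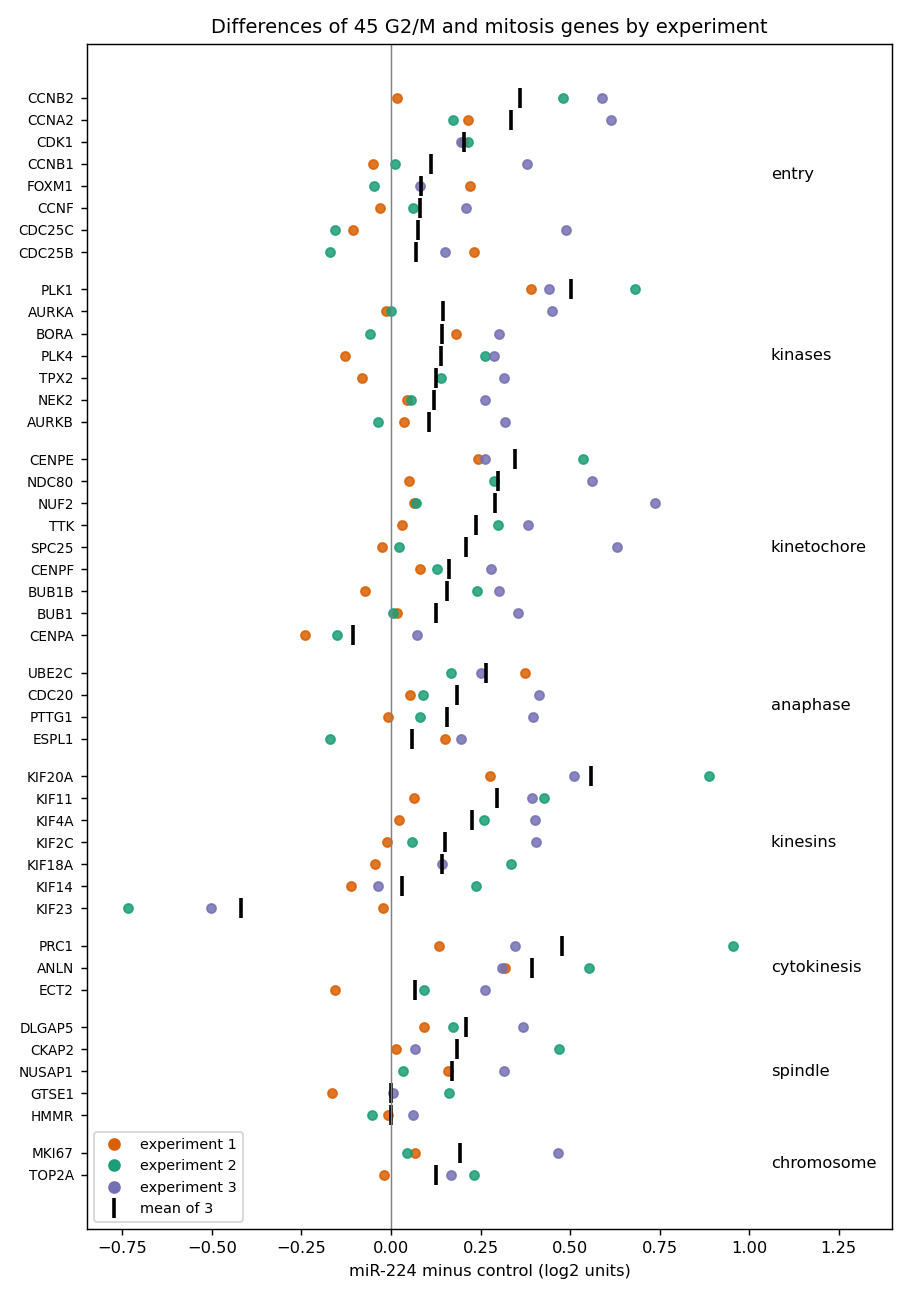
Difference between miR-224 and control cells (x axis, log2 units) for each of the 45 members (y axis), grouped by role. Points are the 3 experiments and black bars their mean, which lies right of 0 for 42 members and furthest left for KIF23 at -0.42.

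The difference was unequal between experiments. The median over the 45 members was 0.03 in experiment 1, 0.13 in experiment 2 and 0.31 in experiment 3, while over all genes it was 0.02, 0.0008 and 0.01. In experiment 1, 27 members were higher (53.1% of all genes), in experiment 2, 35 (50.2%), and in experiment 3, 43 (52.6%). The 2 members that were not higher in experiment 3 were KIF14 and KIF23. With 1 pair of arrays in each experiment, the differences between experiments were not tested.

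The level of the members also differed between experiments in cells of the same treatment. Control cells of experiment 3 read lower than those of experiment 1 for 43 of 45 members, with a median of 1.07, and lower than those of experiment 2 for 44 of 45, with a median of 0.87. Between experiments 1 and 2 the median was 0.18 for the controls and 0.04 for the miR-224 cells. In miR-224 cells experiment 3 was lower than experiment 1 by a median of 0.77 and lower than experiment 2 by 0.67. Both arrays of experiment 3 were the lowest of all 6 for 35 members (77.8%), compared with 39 of 50 DNA replication and S-phase genes (78%) and 18.2% of all genes. The experiment with the lowest member levels was thus also the one with the largest median difference, and whether the level bears on the difference was not tested.

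**Figure D3:**
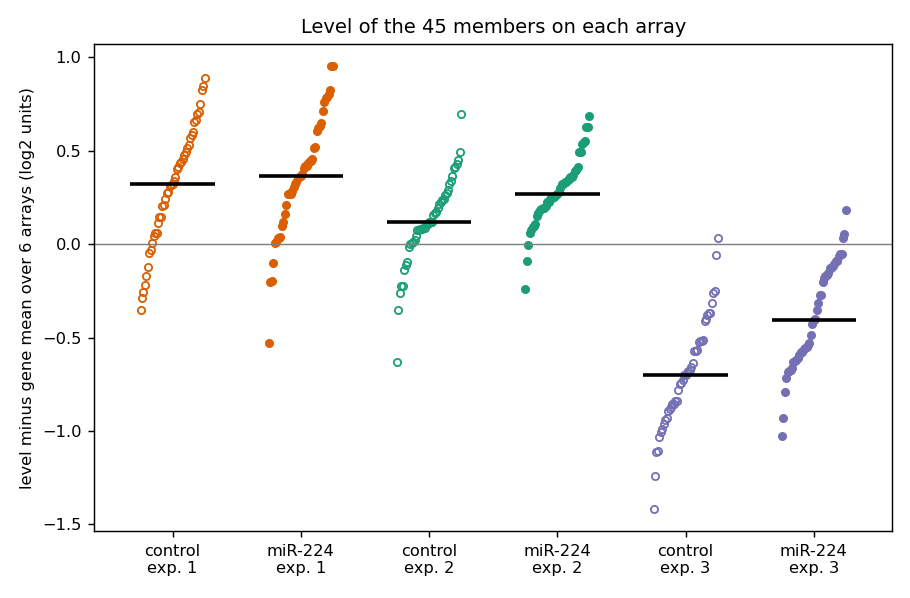
Level of each of the 45 members on each array minus that gene's mean over the 6 arrays (y axis, log2 units), by array (x axis). Points are genes, open for control and filled for miR-224, and bars are medians, which were lowest in experiment 3 at -0.70 for control and -0.40 for miR-224 cells.

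Experiment 1 stood apart in the signal of 5′ control probe sets on both of its arrays, and the cause was not tested. Its control probe sets for the 5′ part of actin and GAPDH read 4.28 and 4.10, against 12.4 and 13.0 in experiments 2 and 3, while the 3′ ones read 12.5 and 12.8 against 12.5 and 13.0. All 6 epithelial genes (EPCAM, KRT8, KRT18, KRT19, CDH1 and CLDN7) lay above the median gene level of 4.75, from 7.87 to 12.3 on average. Of 4 leukocyte and 4 endothelial markers 0 lay above it, and of 5 fibroblast markers only COL1A1 did (5.96). The summed level of the 5 fibroblast markers was 18.3 to 18.8 on control and 18.7 to 19.3 on miR-224 arrays, that of the 4 leukocyte markers 11.2 to 11.4 and 11.2 to 11.5, and that of the 4 endothelial markers 12.6 to 13.1 and 11.96 to 12.8. Their part in the results was not tested.

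Each member was read by its brightest probe set over all 6 arrays. Where a gene has several, that choice favours those that kept signal in experiment 1. The probe sets used for the members did not share the loss of signal there, and their contrast with other probe sets is in part built in. Set against the mean of experiments 2 and 3, they read higher in experiment 1 for 37 of 45 members, and 0 lay more than 1 below that mean, the lowest being 0.61 below. In 31 members experiment 1 was above both others. The low member levels of experiment 3 enter the mean of experiments 2 and 3. Over all 19775 genes, control cells of experiment 1 also read above those of experiment 2 for 11903 and above those of experiment 3 for 11212. Among 24 other probe sets of members at or above the median gene level, 8 lay more than 1 below that mean in experiment 1. A second probe set of BUB1, for example, read 2.95 there and 7.91 and 6.83 in experiments 2 and 3, and one of NUSAP1 read 4.20 against 8.81 and 8.34. Of these 24, 17 were higher in miR-224 cells, with a median of 0.12. For 7 members (CCNB1, CCNF, GTSE1, HMMR, KIF14, MKI67 and TOP2A) another such probe set had the opposite sign to the one used. The differences of ANLN (0.67 ± 0.12 SE, against 0.39 on the probe set used), BUB1 (0.39 ± 0.10, against 0.13) and NEK2 (0.33 ± 0.11, against 0.12) were larger on a second probe set that was dim in experiment 1, as held for 6 of the 8 such probe sets. Those of NUSAP1 (0.11, against 0.17) and CCNF (-0.22, against 0.08) were not. That of CCNA2 was smaller on its second probe set (0.03 ± 0.10, against 0.33).

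Cyclins, CDK1, its activators and FOXM1 make up the group of mitotic entry, in which all 8 differences were above 0 on average (median 0.10) and 3 were higher in every experiment. CCNB2, a B-type cyclin that activates CDK1, read 9.54, 8.96 and 8.51 in control cells and 9.56, 9.44 and 9.09 in miR-224 cells of experiments 1, 2 and 3. Both groups overlapped, and within pairs the arrays were nearly level in experiment 1 and higher with miR-224 in the others. The difference was 0.36 ± 0.13 (SE, n = 3 pairs, limma adjusted p = 0.357), or 0.19 with its probe sets averaged. The other probe sets in that average were dim, at 3.92 and 2.47, against 9.18 for the one used. CCNA2, the cyclin of S phase and early mitosis, read 8.23, 8.41 and 7.12 in controls and 8.45, 8.58 and 7.73 with miR-224. Each pair was higher with miR-224, most in experiment 3, where the control was lowest, and the difference was 0.33 ± 0.12 (limma adjusted p = 0.357). It was 0.19 without experiment 3 and 0.18 with its probe sets averaged.

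CDK1, the mitotic cyclin-dependent kinase itself, differed by 0.20, 0.21 and 0.20 in experiments 1, 2 and 3, the most even of the entry genes, for a mean of 0.20 ± 0.10 (limma adjusted p = 0.512). On 2 other bright probe sets it differed by 0.21 and 0.19 on average, but less evenly. One stood at -0.04, 0.21 and 0.47 in experiments 1, 2 and 3, and the other at 0.02, 0.29 and 0.28. CCNB1, the main B-type cyclin, was near 0 in experiments 1 and 2 (-0.05 and 0.01) and at 0.38 in experiment 3. CDC25C, the phosphatase that activates CDK1 at mitotic entry, stood at -0.11, -0.16 and 0.49. CDC25B, which starts CDK1 activation in G2, stood at 0.23, -0.17 and 0.15. FOXM1, the transcription factor of many G2 genes, stood at 0.22, -0.05 and 0.08, and CCNF, a substrate receptor of an SCF ubiquitin ligase, at -0.03, 0.06 and 0.21, so that neither differed by more than its standard error (0.08 ± 0.11 for both).

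The mean difference was above 0 for 7 of 7 kinases and kinase activators, and its median was 0.14. PLK1 read 8.54, 8.90 and 8.48 in controls and 8.93, 9.58 and 8.92 in miR-224 cells. The lowest miR-224 array, in experiment 3, lay just above the highest control array, in experiment 2. Its differences were 0.39, 0.68 and 0.44, with a mean of 0.50 ± 0.11 (SE, n = 3 pairs, limma adjusted p = 0.189). Variances moderated with an intensity trend and robustly, in the same paired model, gave PLK1 a limma adjusted p of 0.040 and called 1 member and 0.283% of all genes. Without experiment 1 the blocked fit called 0 members and 0.880% of all genes, with a limma adjusted p of 0.104 for PLK1 and 0.056 for KIF20A. PLK1 has 1 probe set, so no other could be compared.

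The other 6 of that group differed less. BORA, which helps Aurora A activate PLK1, differed by 0.18, -0.06 and 0.30. AURKA, the centrosomal Aurora kinase, was level in experiments 1 and 2 (-0.01 and -0.0001) and stood at 0.45 in experiment 3. On its other bright probe set AURKA stood at 0.03, 0.26 and 0.60, with a mean of 0.30 ± 0.13. Its spindle activator TPX2 stood at -0.08, 0.14 and 0.31. AURKB, the kinase of the chromosomal passenger complex, differed by 0.04, -0.04 and 0.32, NEK2, a kinase of centrosome separation, by 0.04, 0.06 and 0.26, and PLK4, which starts centriole duplication, by -0.13, 0.26 and 0.29. In all 6 the value of experiment 3 was the highest.

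Kinetochore and checkpoint genes were higher in 8 of 9 cases, with a median of 0.21, and 6 of the 9 were higher in every experiment. CENPE, the kinesin that carries chromosomes to the spindle equator, read 6.81, 5.75 and 5.22 in controls and 7.05, 6.29 and 5.48 with miR-224. The arrays ranked by experiment, and within each pair the miR-224 array was the higher, for a difference of 0.35 ± 0.11 (limma adjusted p = 0.314). NDC80, a microtubule-binding subunit of the outer kinetochore, read 7.997, 7.15 and 6.14 in controls and 8.05, 7.44 and 6.70 with miR-224. Within pairs the miR-224 array was higher by 0.05, 0.29 and 0.56, and the mean was 0.30 ± 0.12 (limma adjusted p = 0.419), or 0.17 without experiment 3 (limma adjusted p = 0.762). NUF2 and SPC25, which belong to the same complex, were near 0 in experiments 1 and 2 (0.06 and 0.07, and -0.02 and 0.02) and stood at 0.74 and 0.63 in experiment 3.

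TTK, the checkpoint kinase also called MPS1, read 7.99, 7.81 and 6.57 in controls and 8.02, 8.11 and 6.95 with miR-224, a difference of 0.24 ± 0.11 (limma adjusted p = 0.488). The miR-224 array was above its control in each pair, and the groups overlapped. BUB1B, the checkpoint protein BubR1, stood at -0.07, 0.24 and 0.30, BUB1, a kinase of the checkpoint, at 0.02, 0.01 and 0.35, and CENPF, a large kinetochore protein, at 0.08, 0.13 and 0.28. CENPA, the histone H3 variant that marks centromeres, was the exception. It read 6.47, 7.46 and 6.51 in controls and 6.23, 7.31 and 6.58 in miR-224 cells, lower in experiments 1 and 2 and higher in experiment 3, for a mean of -0.11 ± 0.11 that did not exceed its standard error (limma adjusted p = 0.787).

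Of the genes of APC/C activation and chromatid separation, 4 of 4 had a higher mean. UBE2C, the ubiquitin-conjugating enzyme of the APC/C, read 9.60, 10.1 and 9.48 in controls and 9.97, 10.2 and 9.73 with miR-224. Each pair was higher with miR-224, and unlike most members the largest difference, 0.37, was in experiment 1. Its mean was 0.26 ± 0.11 (limma adjusted p = 0.406). CDC20, the activator of the APC/C, stood at 0.05, 0.09 and 0.41, PTTG1, the securin that the APC/C destroys, at -0.01, 0.08 and 0.40, and ESPL1, the separase that cuts cohesin, at 0.15, -0.17 and 0.20.

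Kinesins held both the largest positive and the largest negative difference of the set. KIF20A read 8.11, 7.79 and 7.42 in controls and 8.39, 8.68 and 7.93 with miR-224. Each pair was higher with miR-224, by 0.28, 0.89 and 0.51, and the groups overlapped because experiment 3 was low on both arrays. The mean was 0.56 ± 0.13 (limma adjusted p = 0.218, and 0.080 with an intensity trend and robust variances). KIF11, the motor that pushes spindle poles apart, read 7.11, 6.0 and 5.11 in controls and 7.18, 6.43 and 5.51 with miR-224, a difference of 0.30 ± 0.12 (limma adjusted p = 0.392). Its arrays ranked by experiment, and the pair of experiment 1 was nearly level.

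KIF23, also called MKLP1, read 8.26, 8.10 and 7.09 in controls and 8.24, 7.37 and 6.58 with miR-224. Experiment 1 was level, at -0.02, and the miR-224 arrays of experiments 2 and 3 were lower by 0.73 and 0.50. The mean difference was -0.42 ± 0.14 (limma adjusted p = 0.333). It was -0.62 without experiment 1 (limma adjusted p = 0.076), -0.26 without experiment 2 (limma adjusted p = 0.821) and -0.12 with both probe sets averaged (limma adjusted p = 0.718). Its only other probe set was dim, at 2.17, and stood at 0.18. KIF23 differed in the opposite direction to KIF20A and PRC1, which act with it at the central spindle and were higher in experiments 2 and 3. The remaining kinesins had small differences, from 0.03 for KIF14 to 0.23 for KIF4A, with 0.14 for KIF18A and 0.15 for KIF2C.

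Of the genes of cytokinesis, PRC1 read 9.68, 8.74 and 8.97 in controls and 9.82, 9.69 and 9.31 with miR-224. Each pair was higher with miR-224, but by 0.96 in experiment 2, 0.13 in experiment 1 and 0.34 in experiment 3, and the mean of 0.48 ± 0.15 (limma adjusted p = 0.314) was 0.24 without experiment 2. ANLN read 9.08, 8.96 and 8.01 in controls and 9.40, 9.51 and 8.32 with miR-224. Its differences were 0.32, 0.55 and 0.31, for a mean of 0.39 ± 0.11 (limma adjusted p = 0.259), and the SD of the 3 differences was 0.14. ECT2, the exchange factor that activates RhoA for furrowing, differed by 0.07 ± 0.12, with -0.16, 0.09 and 0.26 in the experiments.

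Spindle-binding proteins were higher on average in 4 of 5 cases, with a median of 0.17, and 3 were higher in every experiment, while both chromosome proteins were higher on average, with a median of 0.16. DLGAP5, also called HURP, stood at 0.09, 0.17 and 0.37, NUSAP1, a microtubule bundler, at 0.16, 0.03 and 0.32, and CKAP2, a spindle-associated protein, at 0.01, 0.47 and 0.07. GTSE1, a microtubule-associated regulator of p53, averaged 0.0010 ± 0.11. HMMR, a spindle protein and hyaluronan receptor, read 8.51, 8.48 and 7.22 in controls and 8.50, 8.43 and 7.28 with miR-224. All 3 pairs were nearly level, for a mean of -0.0005 ± 0.10 (limma adjusted p = 0.999) whose sign turned with 4 other settings. MKI67, the proliferation marker at the chromosome surface, stood at 0.07, 0.04 and 0.47, and TOP2A, the topoisomerase that untangles chromatids, at -0.02, 0.23 and 0.17.

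**Figure D4:**
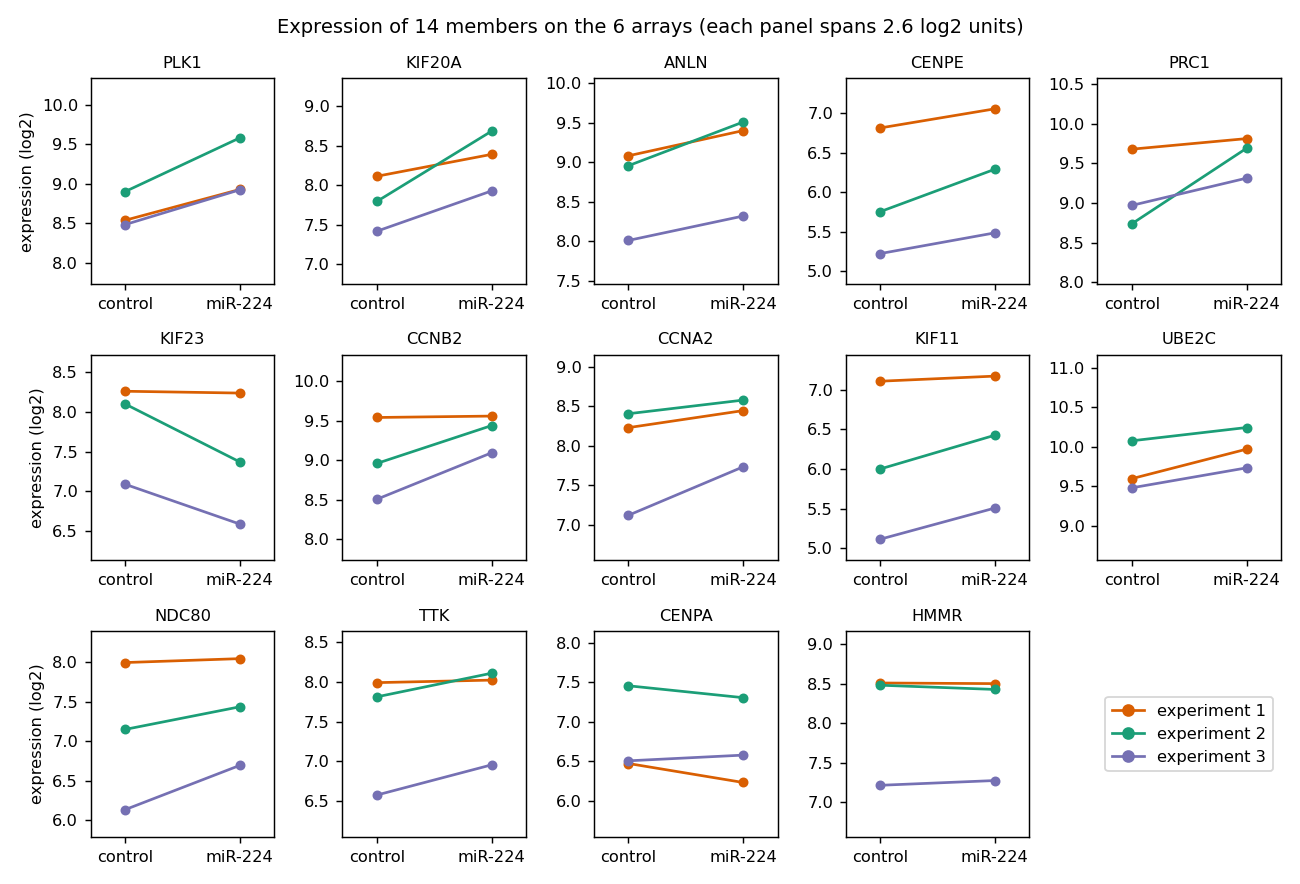
Expression (y axis, log2) of the 12 members with the smallest p and of the other members with a mean difference below 0 (CENPA and HMMR), in control and miR-224 cells (x axis). Lines join the arrays of an experiment, and each slopes upward for PLK1, KIF20A, ANLN, CENPE and PRC1 but not for KIF23.

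Other genes of G2 and mitosis were taken from lists written for this comparison, of which 124 of 128 genes were measured. Like the members, these lists were chosen with earlier results of these data known, so their counts are descriptions. None passed the limma fit, 81 had a higher mean (65.3%, against 53.2% of all genes), and the median was 0.05. At an unadjusted p under 0.05, 13 were higher and 8 lower, against 5.45% and 5.52% of all genes. Further mitotic genes came closest to the members, with 28 of 34 higher, a median of 0.13, and 7 higher and 1 lower at that p. CDKN3, a phosphatase of cyclin-dependent kinases, differed by 0.58 ± 0.16 (limma adjusted p = 0.255) and FAM83D, which recruits casein kinase 1 to the spindle, by 0.39 ± 0.11 (0.278). PIMREG, a mitotic chromatin-associated protein, was lower by -0.11, -1.07 and -0.41 in experiments 1, 2 and 3 (limma adjusted p = 0.303).

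Kinetochore genes outside the members were higher in 20 of 29 cases, with a median of 0.05. At an unadjusted p under 0.05, 3 of them were higher and 2 lower, against 5.45% and 5.52% of all genes. KNL1, the scaffold that recruits BUB1, differed by 0.31 ± 0.11, whereas ZWILCH, of the complex that brings dynein to kinetochores, differed by -0.34 ± 0.12 and CENPI, an inner kinetochore protein, by -0.44 ± 0.10, from a low level (5.00, 3.81 and 3.53 in controls). Limma adjusted p-values of these 3 lay between 0.222 and 0.344. Of the chromosomal passenger genes and their guards 4 of 5 were higher, with a median of 0.20, led by SGO2, which protects centromeric cohesion (0.25 ± 0.12), BIRC5, or survivin (0.21 ± 0.11), and CDCA8, or borealin (0.20 ± 0.12). Condensin and cohesin had 11 of 17 higher and 0 at an unadjusted p under 0.05, and NCAPG2, NCAPG and NCAPD3, all condensin subunits, stood at 0.24, 0.23 and 0.22. Another condensin subunit, NCAPD2, had the largest difference of that list, -0.51, with -1.67, 0.01 and 0.12 in experiments 1, 2 and 3.

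APC/C subunits and regulators had 9 of 16 higher and a median of 0.0028. FBXO5, or EMI1, an inhibitor of the APC/C, was higher by 0.55, 0.45 and 0.26 (limma adjusted p = 0.242), the small subunit ANAPC13 by 0.28 ± 0.11, and the activator FZR1 was lower by -0.77, -0.17 and -0.07. In the MuvB and DREAM group 7 of 13 were higher, with a median of 0.02. LIN54, the DNA-binding subunit, differed by 0.42 ± 0.10 (limma adjusted p = 0.228) but from a low level of 3.50, 2.91 and 2.58 in controls. MYBL1, a MYB-family transcription factor, differed by 0.23 ± 0.11 and E2F5, a repressor E2F, by -0.22 ± 0.11.

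Genes that brake CDK1 or act in the G2 checkpoint went the other way, with 8 of 10 lower and a median of -0.14, while 53.2% of all genes were higher. At an unadjusted p under 0.05, 0 were higher and 4 lower, against 5.45% and 5.52% of all genes. The list was written with earlier results of these data known, so its counts are descriptions and not an independent test. CDKN1A, which encodes p21, read 8.79, 10.2 and 10.95 in controls and 8.25, 9.25 and 9.60 with miR-224. Every pair was lower with miR-224, by -0.54, -0.96 and -1.35, the largest being in experiment 3, where the members had their largest median difference. The blocked limma fit gave an adjusted p of 0.137, and 0.0062 with an intensity trend and robust variances. ATR, the kinase that senses stalled replication, was lower by -0.20, -0.37 and -0.61 (limma adjusted p = 0.282), and WEE1, which phosphorylates and inhibits CDK1, by -0.29, -0.59 and -0.02 (0.444). CDKN1A is a reported target of miR-224. Its values and those of the members come from the same arrays, and a relation between them was not tested.

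DNA replication and S-phase genes were compared in the same fit. Of 50 measured, 27 were higher (54%, against 53.2% of all genes), and the median was 0.02. At an unadjusted p under 0.05, 1 was higher and 3 lower, against 5.45% and 5.52% of all genes. POLD3, a subunit of DNA polymerase delta, differed by 0.33 ± 0.11, whereas CDC6, which loads the replicative helicase, differed by -0.27 ± 0.10. GINS4, a helicase cofactor, differed by -0.30 ± 0.12, but from a low level (3.67, 4.28 and 3.85 in controls). The medians of the S-phase list were 0.02, -0.05 and 0.13 in experiments 1, 2 and 3. The difference between this list and the members was not tested.

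**Figure D5:**
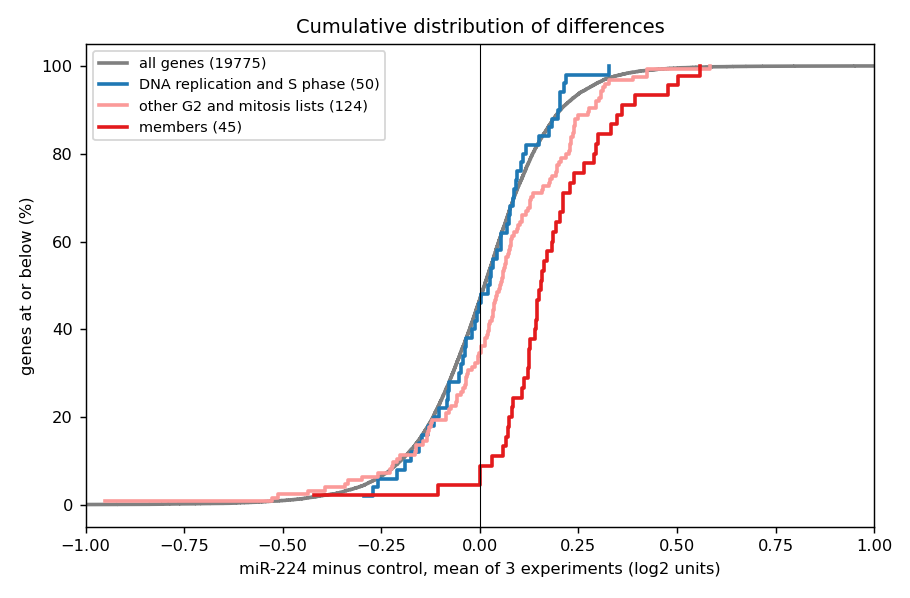
Cumulative share of genes (y axis, percent) at or below a given mean difference between miR-224 and control cells (x axis, log2 units), for the 45 members, 124 other genes of G2 and mitosis, 50 S-phase genes and all 19775 genes. The curve of the members lies to the right, with a median of 0.16, and that of S-phase genes (0.02) follows all genes (0.01).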

How the data were processed

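The deposited table holds expression values on a log scale, read here as log2, 1 column for each of 6 Affymetrix arrays, which the authors made with RMA and Partek, per the submitters' processing notes. Their versions, their settings and the base of the logarithm are not stated in what was used here. Values lay between 1.47 and 13.6, with array medians from 3.41 to 3.53. RMA makes arrays alike, so a shift common to most genes would not show.

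Of 54675 probe sets, 62 controls were left out, 41091 had 1 gene symbol in the platform annotation, 1801 had several and 11721 were unlisted. Looking symbols up in RefSeq by gene identifier changed 0. Each gene took its brightest probe set. The test was limma's moderated one (limma 3.58.1, R 4.3.3, lmFit and eBayes, two-sided), with experiment as a block, since the series states pairs. Deviations from group means correlated at 0.855, 0.585 and 0.771 between same-numbered arrays and at -0.753 to 0.257 otherwise, across genes, which are not independent. Members and lists were chosen with earlier results of these data known. Array values are given for the 12 members with the smallest p and those with a mean below 0. Up to 3 genes with the smallest p are named from each other list. CDKN1A is given in any case, and NCAPD2 was added for having the largest difference of its list. Alternatives were the fit without the block, each experiment left out (in a paired fit the same as leaving out either of its arrays), 2 normalizations, the mean of probe sets, only brighter genes, and 2 variance settings. Python 3.11.15 and matplotlib 3.10.9 made the figures.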

Additional observations from a re-analysis of the deposited data

How the results depend on the processing

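Without experiment as a block the limma fit called 0 members and 0 genes, as with it, at unchanged differences but larger standard errors, and at an unadjusted p under 0.05 it had 0 members and 313 genes, against 11 and 2169 with the block. The count of members called was 1 (PLK1) with trend and robust variances and 0 under the other alternatives. All genes called numbered 56 with trend and robust variances, 4 with array weights and 174 without experiment 1, and 0 otherwise. Leaving out 1 experiment gave 22 to 34 members higher in every remaining experiment, 34 being without experiment 1. Being higher in fewer pairs is a looser criterion, so these counts cannot be set against the 22 members over all 3 pairs. The count was 18 with quantile normalization of all 3 experiments. Shares of all genes under these settings were not taken. With 1 experiment left out, the median member difference was 0.07 (without experiment 3) to 0.23 (without experiment 1). Under the other alternatives the median was 0.14 to 0.16. HMMR turned positive, at 0.035 with the mean of probe sets, 0.015 with quantile normalization, and, with 1 experiment left out, between -0.031 and 0.026 (0.0033 without experiment 1), and the cause was not tested. Background correction could not be varied. Signals near background limit dim genes such as CENPI and LIN54, whereas the lowest mean over the 6 arrays among the 45 members was 6.10 and their lowest single value 5.11.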

Other observations

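Promoter letters were also set against the differences. Among genes that were not members, the 1498 with CCAAT and TTTGAA or TTTAAA in one window had a median difference of 0.02, and 18.4% were higher in every experiment, compared with 0.009 and 18.1% for the 13846 without both. Within the members the 27 with both had a median of 0.16, with 44.4% higher in every experiment, and the 13 without both also 0.16, with 61.5%. The 5 members with neither TTTGAA nor TTTAAA (NEK2, BUB1, CCNA2, CKAP2 and AURKB) were all higher on average, with a median of 0.13. Other forms of the CHR were not searched for, so these 5 cannot be taken as lacking a CHR. These are descriptions of genes that share arrays, and no difference between the classes was tested.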
